A study of Homo sapiens with 12 samples.

Results

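Genes of the mesenchymal programme and of the extracellular matrix were followed in SK-BR-3 breast cancer cells, in their epirubicin-resistant derivative SK/EPI, and in SK/EPI cells after BCRP silencing. The module was a list of 49 named genes, taken from the 58735 genes of the deposited tables. It held 6 transcription factors of the epithelial-mesenchymal transition (EMT), 7 mesenchymal adhesion and cytoskeleton genes, 6 fibrillar or fibril-associated collagens, 5 genes of collagens IV and VI, 5 laminin chains, 9 matrix glycoproteins or proteoglycans, and 11 genes of matrix proteolysis, its inhibitors and crosslinking. The list was set by name, with no threshold on a measured value, but earlier results of these data were known when it was drawn up.

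SK-BR-3 is an established human line from a HER2-positive breast cancer, and SK/EPI was derived from it by long stepwise exposure to rising doses of epirubicin, an anthracycline. SK/EPI is a single selected line, so drug resistance and anything else that changed during its selection cannot be told apart. The SK/EPI-siControl and SK/EPI-siBCRP groups were SK/EPI cells transfected for 48 h with a control siRNA (siNC) or an siRNA against BCRP, the half-transporter encoded by ABCG2. Each of the 4 groups had 3 poly-A selected RNA-seq libraries. The labels do not say whether the 3 came from separate cultures, so the p-values below measure only the spread between these libraries. The first table held SK-BR-3 and SK/EPI and the second held both siRNA groups. The tables may have been normalized separately, so tests were made only within a table, and levels from all 4 groups are set side by side without a test.

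The extracellular matrix is the protein network outside cells. Basement membranes, on which epithelia rest, are sheets of laminin and collagen IV, while fibrillar collagens, fibronectin and matricellular proteins such as SPARC fill connective tissue. Matrix metalloproteinases (MMPs) and plasmin cut this network, TIMPs inhibit the metalloproteinases, and lysyl oxidases crosslink collagen. In an EMT, factors of the SNAI, ZEB and TWIST families repress E-cadherin (CDH1), while vimentin (VIM), N-cadherin (CDH2) and matrix genes come on. Carcinoma cells can express parts of this set without the rest.

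Between 15830381 and 20545811 reads per library lay on genes, recovered from the FPKM steps. ABCG2 was at 32.7 to 35.9 FPKM in SK/EPI cells against 0.0220 to 0.0750 in SK-BR-3 cells, and at 2.84 to 3.47 in BCRP-silenced against 32.5 to 33.7 in siControl cells. The labelled cell type was checked with 7 markers of HER2-positive luminal breast epithelium. ERBB2, GRB7, EPCAM, KRT8, KRT18 and KRT19 were expressed in all 4 groups, with summed levels of 3536 to 3732 FPKM in SK-BR-3 and 2206 to 2324 in SK/EPI libraries, 2610 to 2658 in siControl and 2180 to 2219 in siBCRP libraries. Mean ERBB2 was 658.9 FPKM in SK-BR-3 and 133.1 in SK/EPI, GRB7 111.6 and 45.5, and KRT19 1651 and 509. KRT8 and KRT18 were higher in SK/EPI, and EPCAM did not pass the test. CDH1 was absent or nearly so, with 0 reads in each SK-BR-3 library, at most 2 in SK/EPI and at most 17 in a transfected library. Of 5 fibroblast markers, 0 passed 3 reads in a SK-BR-3 library and 3 did so in SK/EPI, and their summed level was 0.00736 to 0.0515 FPKM in SK-BR-3 and 0.327 to 0.427 in SK/EPI. It was 0.812 to 1.01 FPKM in siControl and 0.890 to 1.01 in siBCRP libraries, and PDGFRA and DPT stayed at or under 3 reads throughout. Of 5 endothelial markers, KDR was at or under 3 reads everywhere, and the summed level was 6.70 to 6.995 FPKM in SK-BR-3 and 27.0 to 28.2 in SK/EPI, most of it CDH5. The endothelial sum was 13.9 to 14.2 FPKM in siControl and 22.3 to 22.6 in siBCRP libraries. PTPRC, the pan-leukocyte marker, was at most 3 reads in SK-BR-3 and SK/EPI, and the 5 leukocyte markers summed to 3.67 to 4.07 and 5.72 to 6.24 FPKM. In the siControl and siBCRP libraries they summed to 7.62 to 8.13 and 7.36 to 7.99 FPKM. The part of these marker levels in the results below was not tested.

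Promoter sequence is shown for 4 members that were at or near 0 in SK-BR-3 cells and rose in SK/EPI cells, and for COL4A1, whose start window overlaps that of COL4A2. Each window runs from 250 bases before to 50 bases after the start, read 5′ to 3′ on the gene's strand, from RefSeq on GRCh38.p14. Capitals mark CG dinucleotides.
SPARC (chr5:151686866-151687165, minus strand, 11 CG): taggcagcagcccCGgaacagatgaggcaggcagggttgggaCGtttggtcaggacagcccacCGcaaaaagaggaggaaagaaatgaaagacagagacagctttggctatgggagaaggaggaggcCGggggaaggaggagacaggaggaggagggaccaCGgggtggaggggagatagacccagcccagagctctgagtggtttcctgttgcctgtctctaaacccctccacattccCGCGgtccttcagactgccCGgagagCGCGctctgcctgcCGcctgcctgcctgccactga
TIMP3 (chr22:32801455-32801754, plus strand, 31 CG): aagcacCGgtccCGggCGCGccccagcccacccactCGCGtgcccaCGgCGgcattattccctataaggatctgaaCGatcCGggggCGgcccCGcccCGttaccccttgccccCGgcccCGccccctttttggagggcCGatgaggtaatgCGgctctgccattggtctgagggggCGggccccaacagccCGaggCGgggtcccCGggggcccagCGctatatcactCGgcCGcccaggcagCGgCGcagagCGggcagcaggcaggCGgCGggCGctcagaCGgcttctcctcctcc
LAMC1 (chr1:183023170-183023469, plus strand, 41 CG): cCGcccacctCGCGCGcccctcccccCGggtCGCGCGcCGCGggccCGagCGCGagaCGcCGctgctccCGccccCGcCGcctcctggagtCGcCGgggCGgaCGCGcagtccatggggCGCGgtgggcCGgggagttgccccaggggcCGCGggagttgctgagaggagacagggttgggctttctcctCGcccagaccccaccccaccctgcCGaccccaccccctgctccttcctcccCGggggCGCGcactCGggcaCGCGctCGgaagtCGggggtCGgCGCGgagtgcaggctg
LAMA4 (chr6:112254518-112254817, minus strand, 8 CG): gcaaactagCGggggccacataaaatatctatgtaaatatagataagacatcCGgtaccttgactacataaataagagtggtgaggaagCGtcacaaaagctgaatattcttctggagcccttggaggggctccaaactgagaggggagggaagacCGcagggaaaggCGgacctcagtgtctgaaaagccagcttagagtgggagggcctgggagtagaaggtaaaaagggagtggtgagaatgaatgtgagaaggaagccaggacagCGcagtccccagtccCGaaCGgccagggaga
COL4A1 (chr13:110307108-110307407, minus strand, 45 CG): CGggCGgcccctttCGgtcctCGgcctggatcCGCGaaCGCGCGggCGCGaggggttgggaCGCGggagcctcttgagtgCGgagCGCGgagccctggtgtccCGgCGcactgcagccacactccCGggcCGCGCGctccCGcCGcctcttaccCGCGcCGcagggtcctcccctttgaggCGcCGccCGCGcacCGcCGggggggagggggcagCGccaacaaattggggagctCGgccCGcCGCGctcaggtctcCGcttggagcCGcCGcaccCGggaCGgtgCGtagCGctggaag

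The median window of the RefSeq table held 14 CG dinucleotides, so TIMP3, LAMC1 and COL4A1 lay above it and SPARC and LAMA4 below. Of the 49 members 32 had a window, 49 windows in all, with a median of 18. The E-box CAGGTG, read by SNAI and ZEB factors, was in 14.3% of member windows and 20.6% of all 35116 windows. The AP-1 motif TGANTCA was in 12.2% and 7.7%, and TATAAA in 8.2% and 11.5%, both strands being searched for each. Genes with several windows, such as ZEB1 and LOX, count more than once in these shares. None of these 3 motifs was in the 5 windows printed above. This was required of the printed windows, so it is not a result and says nothing about the factors themselves.

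Summed over the 49 genes, the level was 207, 218 and 218 FPKM in the SK-BR-3 libraries and 869, 891 and 884 in the SK/EPI libraries. The module thus made up 0.0725% to 0.0784% of all FPKM in SK-BR-3 and 0.307% to 0.315% in SK/EPI cells. It summed to 799.7, 798.5 and 802 FPKM in siControl and 843, 853 and 847 in siBCRP libraries. A few genes carried most of it. LAMB1, TIMP2 and THBS1 gave 64.2% of the sum in SK-BR-3, whereas COL12A1, TIMP3 and SPARC gave 62.8% in SK/EPI. At the other end, 10 members had at most 3 reads in each of the 12 libraries.

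**Figure D1:**
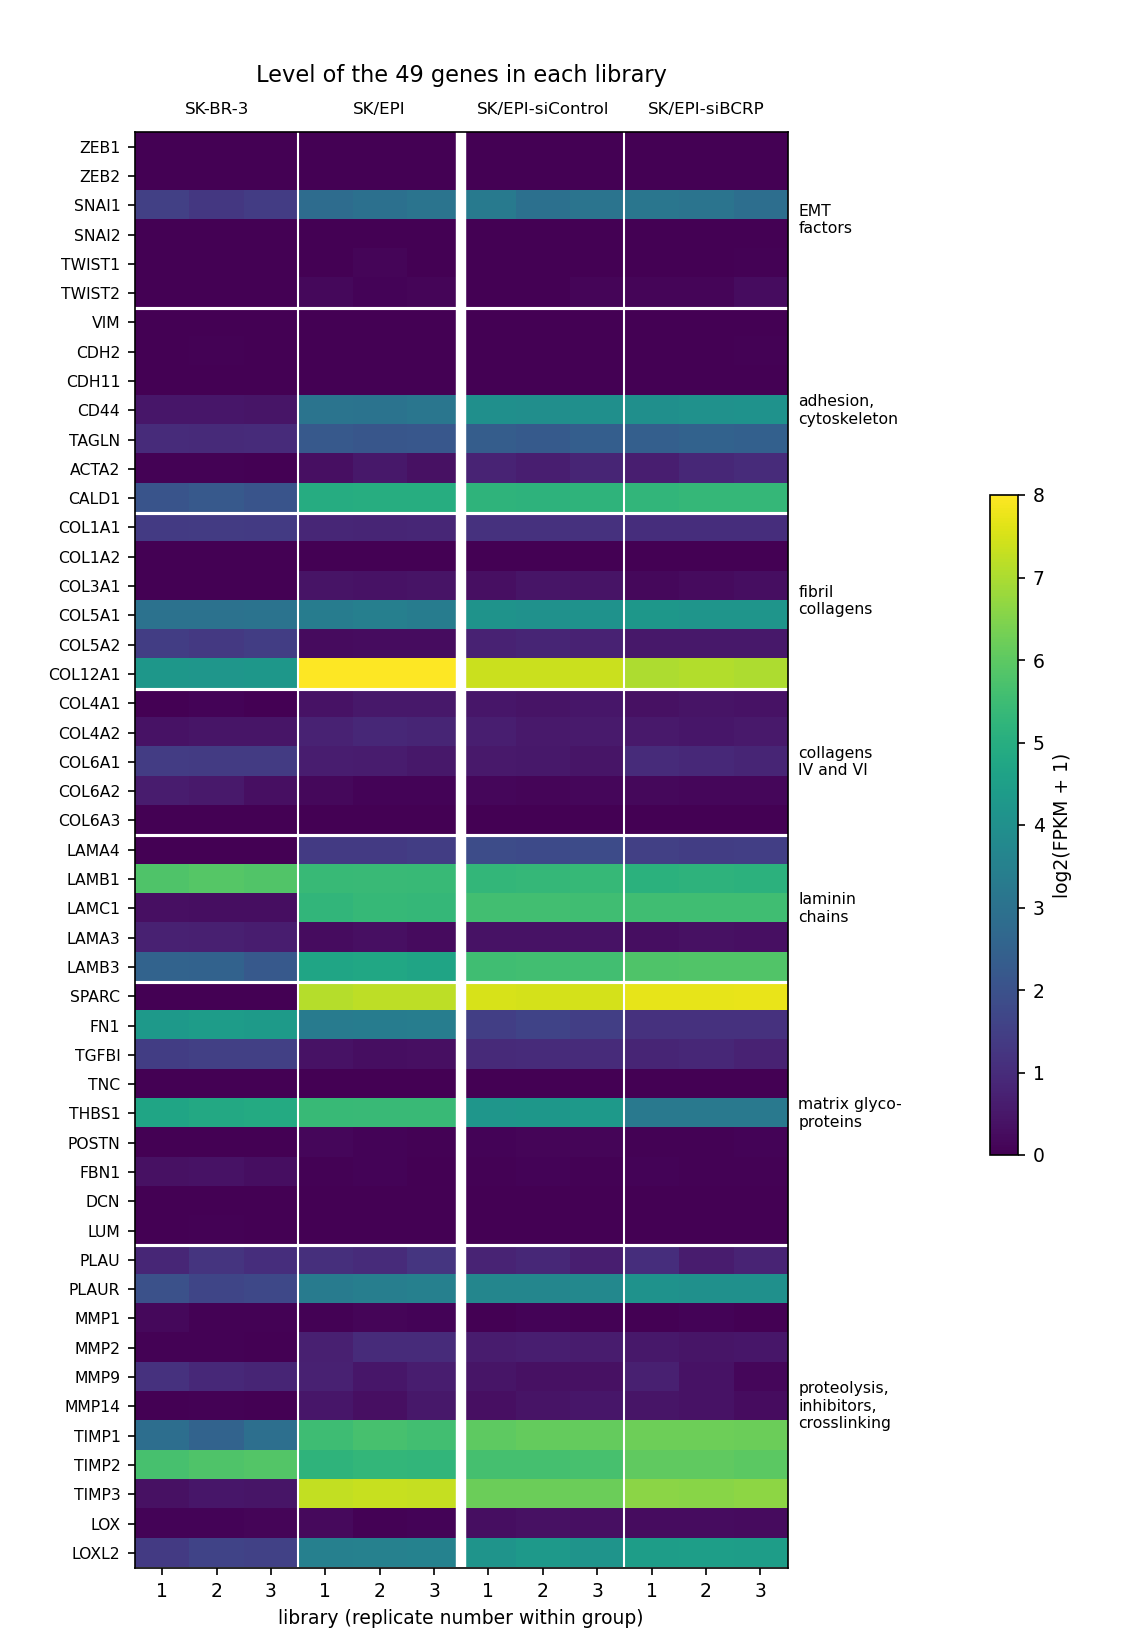
Heat map of the 49 genes (rows, grouped by role) in the 12 libraries (columns, grouped by condition), with colour giving log2(FPKM + 1); the thick white gap separates the separately deposited tables. COL12A1, SPARC and TIMP3 are brightest outside SK-BR-3, and the EMT factors other than SNAI1 stay dark in every library.

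For SK/EPI against SK-BR-3 cells, 33 members had enough reads to be tested and 21 were higher and 11 lower at an adjusted p under 0.05 (limma on log2(FPKM + 1), Benjamini-Hochberg over all 15823 genes tested). These are 63.6% and 33.3% of the tested members, where 37.9% and 37.0% of all tested genes were called higher and lower. Of the 33, 6 passed the read filter only through SK/EPI (ACTA2, COL3A1, LAMA4, SPARC, MMP2 and MMP14) and so had to differ. Without them 15 of 27 were higher and 11 lower. With a log2 difference of at least 1 in addition, 13 of the 33 were higher and 3 lower, or 11 and 3 of the 27, against 7.87% and 6.53% of all tested genes. The median log2 difference was 0.42 over the tested members and 0.01 over all tested genes. The first value rested on the pseudocount, which pulls low genes towards 0, and was 1.76 with a pseudocount of 0.1. Of the 33 tested members 21 lay wholly above and 11 wholly below SK-BR-3, or 15 and 11 of the 27, where 39.4% of all tested genes lay wholly above and 38.3% wholly below. Unlike the 27, the shares of all tested genes still include genes that passed the filter through a single group.

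For BCRP-silenced against siControl cells, 34 members were tested, and 10 were higher and 8 lower. That is 29.4% and 23.5% of them, against 19.4% and 18.7% of the 16298 genes tested. With a log2 difference of at least 1 THBS1 alone passed, downward, where 0.344% of all tested genes passed downward and 0.0675% upward. The libraries of 13 tested members lay wholly above and those of 13 wholly below siControl, against 25.5% and 25.4% of all tested genes. The median log2 difference was -0.01 over the tested members and -0.00 over all tested genes. Differences in this comparison thus lay between -1.01 and 0.42 on the log2(FPKM + 1) scale. The pseudocount pulls low genes towards 0 here too. By mean FPKM, COL6A1 (0.42) was 2.15-fold higher, THBS1 (-1.01) 2.13-fold lower and COL3A1 (-0.17) 1.83-fold lower.

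Among the EMT transcription factors, SNAI1 was the only member expressed. SNAI1, the Snail repressor, was at 1.87, 1.48 and 1.65 FPKM in SK-BR-3 and 6.05, 6.79 and 7.51 FPKM in SK/EPI libraries. The groups did not overlap, and SNAI1 was 4.07-fold higher in SK/EPI cells, with a log2(FPKM + 1) difference of 1.54 ± 0.09 (SE, adjusted p = 1.19e-06). After transfection SNAI1 was at 8.58, 6.67 and 7.42 FPKM with siControl and 7.80, 7.43 and 6.47 with siBCRP, ranges that overlapped (difference -0.05 ± 0.09, adjusted p = 0.698). ZEB1, ZEB2, SNAI2 and TWIST1 had at most 2, 2, 1 and 3 reads in any library. For ZEB1, with 0 reads in 11 of 12 libraries, 3 reads would be 0.0152 to 0.0219 FPKM, so a level above this was not seen. TWIST2 had 0 reads in the SK-BR-3 libraries, 5, 2 and 3 in SK/EPI, 0, 0 and 3 with siControl and 3, 3 and 7 with siBCRP, too few to test.

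Of the mesenchymal adhesion and cytoskeleton genes, the classical markers were at or near 0 and 4 others rose in SK/EPI cells. VIM, which encodes the intermediate filament vimentin, had at most 2 reads in any library, and 12.4% of its exonic bases are shared with an overlapping gene. CDH2 had at most 3 reads and CDH11 (cadherin-11) at most 1. CD44, the hyaluronan receptor, was at 0.403, 0.399 and 0.357 FPKM in SK-BR-3 and 7.40, 7.33 and 7.88 FPKM in SK/EPI libraries. It was thus 19.5-fold higher in SK/EPI (log2 difference 2.62 ± 0.05, adjusted p = 5.77e-09). CALD1, the actin-binding caldesmon, rose from 3.23, 3.72 and 3.24 to 30.1, 30.4 and 30.5 FPKM, 8.94-fold (2.84 ± 0.05, adjusted p = 2.44e-09). TAGLN, the smooth muscle actin-binding protein transgelin, rose from 0.997, 0.933 and 0.992 to 3.66, 3.39 and 3.53 FPKM, 3.62-fold (1.20 ± 0.05, adjusted p = 3.59e-07). In each of these 3 genes the SK/EPI libraries all lay above the SK-BR-3 libraries. ACTA2, smooth muscle actin, stayed low, with 2, 2 and 0 reads in SK-BR-3 and 15, 23 and 15 in SK/EPI. The read ratio was 12.4 (95% exact interval 4.58 to 47.4, counting error only). Opposite-strand genes share 17.3% and 12.8% of the exonic bases of ACTA2, and 11.4% of those of TAGLN. With siBCRP, CALD1 rose slightly, from 35.9, 35.2 and 36.1 to 37.5, 39.6 and 38.8 FPKM (0.11 ± 0.03, adjusted p = 0.0134). CD44, TAGLN and ACTA2 did not pass the test, with log2 differences of 0.06, 0.12 and 0.08 and adjusted p of 0.134, 0.123 and 0.525. The 3 CD44 values with siBCRP, 14.9, 15.5 and 15.9 FPKM, nonetheless lay above the 14.6 to 14.8 FPKM with siControl.

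Of the fibrillar and fibril-associated collagens, COL12A1 stood far above the rest. COL12A1 (chr6:75084326-75206051), which encodes a collagen bound to the surface of fibrils, was at 17.6, 17.4 and 17.7 FPKM in SK-BR-3 and 260, 251 and 252 FPKM in SK/EPI libraries. It was the highest member in SK/EPI and rose 14.5-fold there (3.78 ± 0.03, adjusted p = 8.23e-11). With siBCRP, COL12A1 fell from 162.9, 162.4 and 163.7 to 129, 134 and 129 FPKM (log2 difference -0.32 ± 0.02, adjusted p = 4.57e-05). The collagen V chains went opposite ways in SK/EPI. COL5A1 was at 7.06, 7.11 and 7.21 FPKM in SK-BR-3 and 9.23, 9.85 and 9.31 in SK/EPI, a difference of 0.36 ± 0.04 (adjusted p = 7.42e-05). COL5A2 fell from 1.76, 1.52 and 1.73 to 0.178, 0.208 and 0.215 FPKM, to a level 8.32-fold lower (-1.15 ± 0.05, adjusted p = 4.14e-07). The same split was seen after BCRP silencing. COL5A1 rose by 0.12 ± 0.03 (adjusted p = 0.0167, and 0.0559 or 0.0508 without siControl replicate 2 or 3, or 0.0559 with libraries scaled to the same sum) and COL5A2 fell by 0.27 ± 0.04 (adjusted p = 0.00212), from 0.700, 0.768 and 0.706 to 0.421, 0.429 and 0.437 FPKM. Without the read filter the adjusted p of COL5A2 was 0.0604. Of the classical fibril collagens, COL1A1 was 1.98-fold lower in SK/EPI (-0.52 ± 0.05, adjusted p = 2.35e-05), at a mean of 1.57 FPKM in SK-BR-3 and 0.794 in SK/EPI. Its partner chain COL1A2 had at most 4 reads in a library of the first table and at most 2 in the second. COL3A1 had 0, 0 and 2 reads in SK-BR-3 and 44, 39 and 42 in SK/EPI, a ratio of 58.7 (95% exact interval 15.9 to 490.1). With siBCRP it was at 18, 27 and 29 reads against 41, 48 and 46 with siControl (-0.17 ± 0.05, adjusted p = 0.0287). That call was lost without the read filter (adjusted p = 0.127) and without siControl replicate 2 or 3 or siBCRP replicate 1 or 2 (adjusted p of 0.0854, 0.0779, 0.0864 and 0.0724). COL3A1 and COL5A2 are neighbours on chromosome 2, with 19149 bases between them, and changed in opposite directions in SK/EPI cells.

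The basement membrane collagens COL4A1 and COL4A2 both rose at a low level, 14.1-fold and 2.21-fold by mean FPKM. They lie head to head on chromosome 13, and their RefSeq start windows share 226 bases of the sequence printed above. COL4A1 had 4, 13 and 5 reads in the SK-BR-3 and 93, 112 and 122 in the SK/EPI libraries, or 0.0171 to 0.0488 against 0.322 to 0.442 FPKM (0.44 ± 0.04, adjusted p = 4.34e-05). COL4A2 was at 0.314, 0.379 and 0.362 FPKM in SK-BR-3 and 0.701, 0.872 and 0.758 in SK/EPI (0.39 ± 0.05, adjusted p = 0.000196). The pseudocount brought these log2 differences of COL4A1 and COL4A2 close together. The collagen VI genes, whose product forms beaded microfibrils, fell instead. COL6A1 went from 1.70, 1.65 and 1.61 to 0.554, 0.518 and 0.420 FPKM (-0.83 ± 0.05, adjusted p = 3.22e-06). COL6A2, which lies 93046 bases from COL6A1 on chromosome 21, had 44, 44 and 27 reads in SK-BR-3 and 13, 5 and 5 in SK/EPI (-0.39 ± 0.07, adjusted p = 0.00131). COL6A3 had at most 8 reads in any library. With siBCRP, COL6A1 rose from 0.451, 0.423 and 0.360 to 0.962, 0.898 and 0.794 FPKM, 2.15-fold (0.42 ± 0.05, adjusted p = 0.000878). This was the largest rise among the tested members in that comparison. COL6A2 (0.03), COL4A1 (-0.07) and COL4A2 (-0.07) did not pass the test, with adjusted p of 0.520, 0.223 and 0.282.

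Laminins are trimers of an alpha, a beta and a gamma chain, and the 5 member chains did not move as a block. LAMC1 (chr1:183023460-183145592), the gamma chain of most laminins, was at 0.255, 0.231 and 0.231 FPKM in SK-BR-3 and 37.8, 39.8 and 39.1 FPKM in SK/EPI libraries. It was 163-fold higher in SK/EPI (5.01 ± 0.04, adjusted p = 9.97e-11). LAMB1, a beta chain that pairs with it, was the highest member in SK-BR-3, at 54.8, 58.3 and 55.9 FPKM, and fell to 41.2, 41.9 and 41.4 in SK/EPI (-0.43 ± 0.03, adjusted p = 6.97e-06). The beta chain was thus transcribed in SK-BR-3 with almost no LAMC1, and both were at about the same level in SK/EPI. LAMA4, an alpha chain of vascular and muscle basement membranes, had 2, 1 and 3 reads in SK-BR-3 and 359, 324 and 375 in SK/EPI. The ratio was 166 (95% exact interval 75.8 to 452), with a log2 difference of 1.38 ± 0.05. LAMA4 passed the read filter only through SK/EPI and so had to differ, and its p-value is left out. LAMB3 and LAMA3, a beta and an alpha chain of epithelial laminin, diverged. LAMB3 rose from 4.80, 4.72 and 3.73 to 25.1, 26.1 and 24.7 FPKM, 5.73-fold (2.29 ± 0.08, adjusted p = 7e-08). LAMA3 fell from 0.648, 0.622 and 0.565 to 0.195, 0.249 and 0.171 FPKM (-0.42 ± 0.04, adjusted p = 5.76e-05). With siBCRP, LAMB3 rose from 46.1, 47.0 and 46.5 to 55.1, 55.6 and 55.9 FPKM (0.25 ± 0.02, adjusted p = 7.34e-05). LAMA4 fell from 2.61, 2.45 and 2.53 to 1.89, 1.71 and 1.77 FPKM (-0.34 ± 0.05, adjusted p = 0.0022). LAMB1 fell by 0.18 ± 0.02 (adjusted p = 0.00114). LAMC1 stayed between 45.3 and 46.3 FPKM in the 6 transfected libraries (-0.01 ± 0.02, adjusted p = 0.704).

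Of the matrix glycoproteins and proteoglycans, SPARC showed the largest rise of the module in SK/EPI and FN1 and TGFBI fell. SPARC (chr5:151661096-151687165), a collagen-binding matricellular protein, had 1 read in each SK-BR-3 library and was at 137, 146 and 145 FPKM in SK/EPI. Against those 3 reads the ratio was 12182, with a 95% exact interval of 4168 to 59074 for counting error only (log2 difference 7.15 ± 0.04). SPARC passed the read filter only through SK/EPI and so had to differ, and its p-value is left out. FN1, which encodes fibronectin, fell from 18.9, 20.5 and 19.4 to 9.002, 9.19 and 9.39 FPKM, 2.13-fold lower (-1.01 ± 0.04, adjusted p = 1.8e-07). TGFBI, a TGF-beta-induced adhesion protein, fell from 1.74, 1.84 and 1.84 to 0.301, 0.234 and 0.267 FPKM (-1.15 ± 0.05, adjusted p = 2.35e-07). THBS1, the matricellular thrombospondin-1, was at 25.01, 27.4 and 28.9 FPKM in SK-BR-3 and 41.3, 41.8 and 42.2 in SK/EPI (0.61 ± 0.05, adjusted p = 1.3e-05). THBS1 was also the member with the largest log2(FPKM + 1) difference after BCRP silencing, although COL6A1 had a like ratio of mean FPKM. It was at 17.3, 17.8 and 18.5 FPKM with siControl and 8.46, 8.36 and 8.34 FPKM with siBCRP, 2.13-fold lower, with no overlap (-1.01 ± 0.03, adjusted p = 2.99e-06). FN1 fell as well, from 1.78, 2.08 and 1.81 to 1.22, 1.21 and 1.22 FPKM (-0.38 ± 0.06, adjusted p = 0.00214). SPARC rose from 182, 178 and 177 to 207, 209 and 211 FPKM (0.22 ± 0.02, adjusted p = 0.000248). TGFBI did not pass the test (-0.16 ± 0.05, adjusted p = 0.0507), although its libraries did not overlap. It passed without siBCRP replicate 2 (adjusted p = 0.0397), scaled to the same sum (0.0395), without the mitochondrial chromosome (0.0463) and with voom (0.0228). FBN1, the microfibril protein fibrillin-1, had 73, 87 and 68 reads in SK-BR-3 and 13, 15 and 6 in SK/EPI (-0.29 ± 0.04, adjusted p = 0.000224), and 7 to 14 reads after transfection. The stromal genes TNC, DCN and LUM, for tenascin-C, decorin and lumican, had at most 3, 1 and 2 reads in any library. POSTN (periostin) had at most 10.

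**Figure D2:**
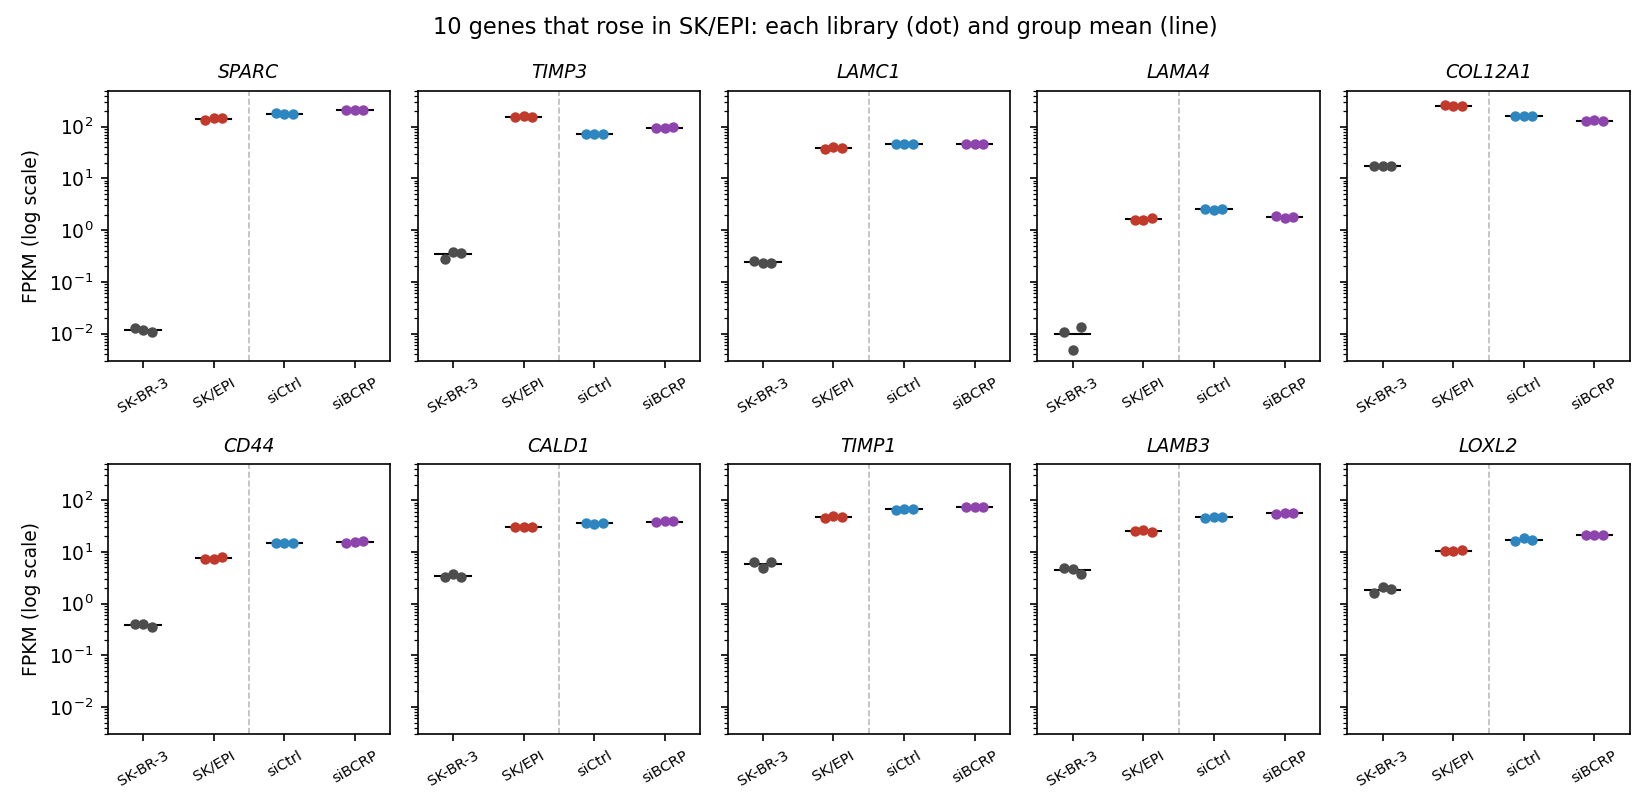
FPKM on a log axis of 10 genes that rose in SK/EPI, with dots for the 3 libraries of a group and a line for the mean; the dashed line separates tables whose levels were not tested against each other. SPARC goes from 1 read per library in SK-BR-3 to 137 to 146 FPKM in SK/EPI, and for each of the 10 genes the transfected groups lie nearer to SK/EPI than to SK-BR-3.

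Of the genes for matrix proteolysis, inhibition and crosslinking, the inhibitors TIMP3 and TIMP1 rose more than any module protease. This holds on the log2(FPKM + 1) scale, while the folds of MMP2 and MMP14, from a few reads, exceeded that of TIMP1. Outside the module, the protease MMP24 rose by 4.04 on that scale, more than TIMP1. TIMP3 (chr22:32801701-32863043), the inhibitor that binds to the matrix itself, was at 0.274, 0.385 and 0.365 FPKM in SK-BR-3 and 152, 161 and 157 FPKM in SK/EPI libraries. It was 459-fold higher (log2 difference 6.88 ± 0.04, adjusted p = 3.03e-11). TIMP1 rose from 6.38, 4.89 and 6.51 to 45.2, 49.7 and 46.9 FPKM, 7.98-fold (2.81 ± 0.09, adjusted p = 5.47e-08). TIMP2 went the other way, from 50.5, 55.1 and 57.1 to 36.2, 38.1 and 37.2 FPKM (-0.53 ± 0.05, adjusted p = 2.16e-05). All 3 inhibitors rose with siBCRP. TIMP3 went from 73.3, 72.8 and 73.1 to 96.1, 94.1 and 97.9 FPKM (0.39 ± 0.02, adjusted p = 1.76e-05). TIMP2 went from 48.9, 48.6 and 49.6 to 65.2, 65.0 and 62.8 FPKM (0.38 ± 0.02, adjusted p = 2.52e-05). TIMP1 went from 64.0, 67.5 and 68.1 to 73.8, 75.1 and 72.4 FPKM (0.15 ± 0.03, adjusted p = 0.00657). For each inhibitor the siBCRP libraries lay wholly above the siControl libraries.

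The metalloproteinases of the module were at most at 1.19 FPKM in any library. MMP2, a gelatinase, had 3, 3 and 2 reads in SK-BR-3 and 60, 88 and 89 in SK/EPI, a ratio of 27.8 (95% exact interval 13.9 to 65.2). MMP14, the membrane-bound activator of MMP2, had 1, 2 and 1 reads in SK-BR-3 and 35, 21 and 35 in SK/EPI, a ratio of 21.4 (8.06 to 80.1). Both stayed low. MMP9, the other gelatinase, fell from 1.19, 0.877 and 0.764 to 0.655, 0.403 and 0.549 FPKM (-0.34 ± 0.09, adjusted p = 0.0118), and 18.4% of its exonic bases overlap an antisense gene. Without the read filter the adjusted p of MMP9 was 0.0701. MMP1, the interstitial collagenase, had at most 4 reads. After BCRP silencing MMP2 was at 40, 42 and 38 reads against 61, 55 and 50 (-0.15 ± 0.04, adjusted p = 0.0286). This call was lost without the read filter (adjusted p = 0.258), with voom (0.0564) and when siControl replicate 1 or 2 or any siBCRP library was left out (0.0528 to 0.0856). MMP9 and MMP14 did not pass the test, with log2 differences of 0.04 and -0.03 and adjusted p of 0.828 and 0.714.

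Of the plasminogen activator genes, the receptor changed and the protease did not pass the test. PLAUR, the urokinase receptor, rose from 2.97, 2.16 and 2.36 to 8.95, 9.66 and 10.2 FPKM in SK/EPI, 3.85-fold (1.61 ± 0.09, adjusted p = 1.29e-06). With siBCRP it rose again, from 11.7, 11.9 and 12.2 to 15.8, 15.3 and 15.4 FPKM (0.35 ± 0.03, adjusted p = 0.000106). PLAU, the urokinase itself, was between 0.812 and 1.38 FPKM in the first table and between 0.512 and 1.08 in the second, and its groups overlapped in each (0.06 ± 0.10, adjusted p = 0.588, and 0.04 ± 0.12, adjusted p = 0.796). It shares 31.1% of its exonic bases with a gene on the opposite strand. The lysyl oxidase LOXL2 rose from 1.58, 2.05 and 1.90 to 10.3, 10.4 and 10.7 FPKM in SK/EPI, 5.69-fold (2.02 ± 0.07, adjusted p = 6.69e-08). With siBCRP it rose from 16.5, 18.6 and 16.7 to 20.8, 21.3 and 21.1 FPKM (0.27 ± 0.04, adjusted p = 0.00279). LOX had 4, 6 and 8 reads in SK-BR-3 and 16, 3 and 5 in SK/EPI, too few to test, and did not pass the test after transfection (-0.07 ± 0.04, adjusted p = 0.166).

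**Figure D3:**
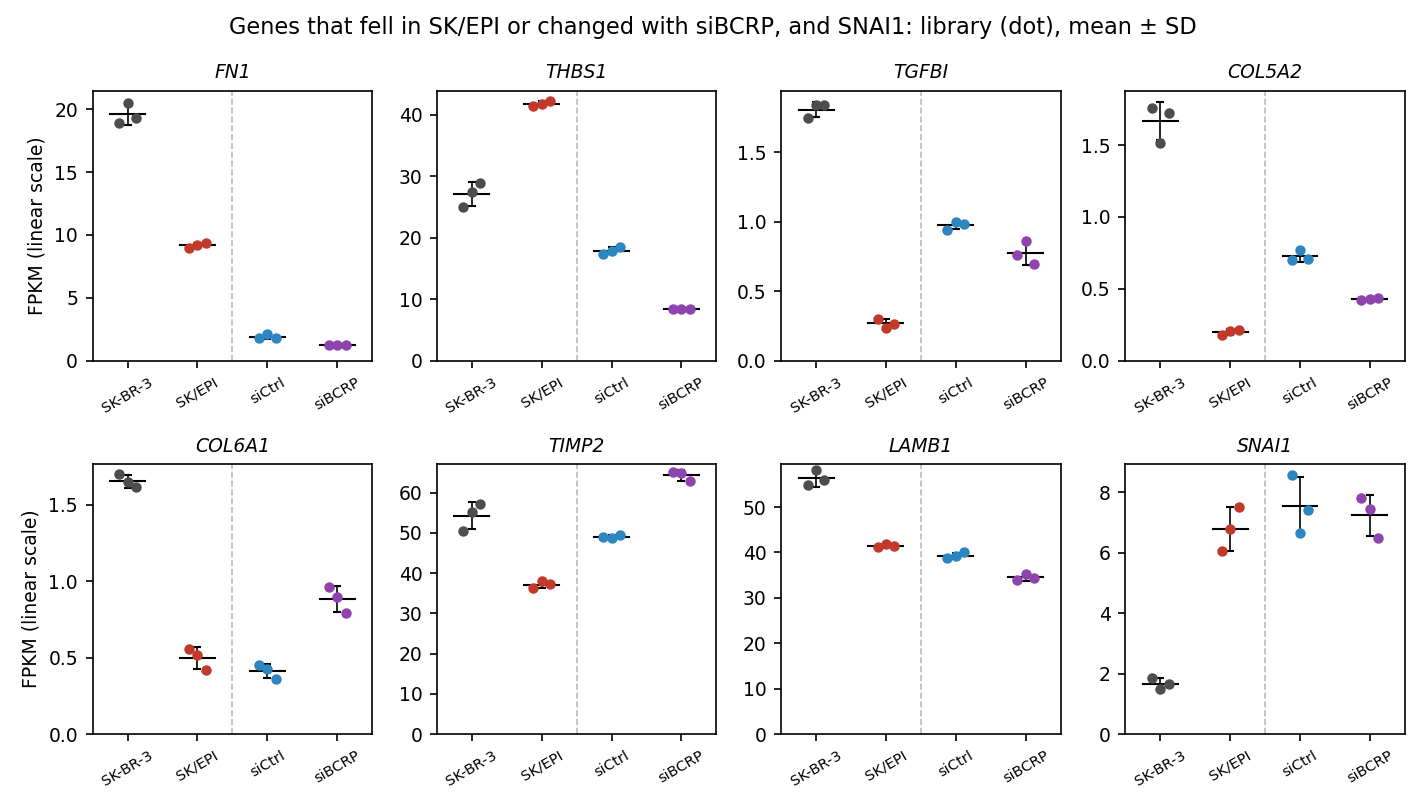
FPKM on linear axes of 7 genes that fell in SK/EPI or changed with siBCRP, and of SNAI1, with dots for the 3 libraries of a group, a line for the mean and whiskers for the SD; the dashed line separates the tables. THBS1 is at 8.34 to 8.46 FPKM with siBCRP, under the 17.3 to 18.5 FPKM with siControl, while the SNAI1 libraries of these groups overlap.

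Set side by side, the comparisons gave every mix of directions. The first comparison uses untransfected and the second transfected SK/EPI cells, and they share no libraries. Of the members tested in both, 8 were higher in SK/EPI and higher again with siBCRP: CALD1, COL5A1, LAMB3, SPARC, PLAUR, TIMP1, TIMP3 and LOXL2. A further 5 were higher in SK/EPI and lower with siBCRP: COL3A1, COL12A1, LAMA4, THBS1 and MMP2. COL6A1 and TIMP2 were lower in SK/EPI and higher with siBCRP, and COL5A2, LAMB1 and FN1 were lower in both. Another 8 rose and 6 fell in SK/EPI without passing the test with siBCRP, and PLAU passed in neither. The share of all genes in each of these classes was not counted, so they only describe the members. ACTA2, COL3A1, LAMA4, SPARC, MMP2 and MMP14 had to be higher in SK/EPI, as they passed the filter only there. The siBCRP calls of COL5A1, COL5A2, COL3A1 and MMP2 were lost under some of the alternatives given above. The sizes were unequal: the fall of COL12A1 with siBCRP was 0.32 on the log2 scale and its rise in SK/EPI was 3.78.

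**Figure D4:**
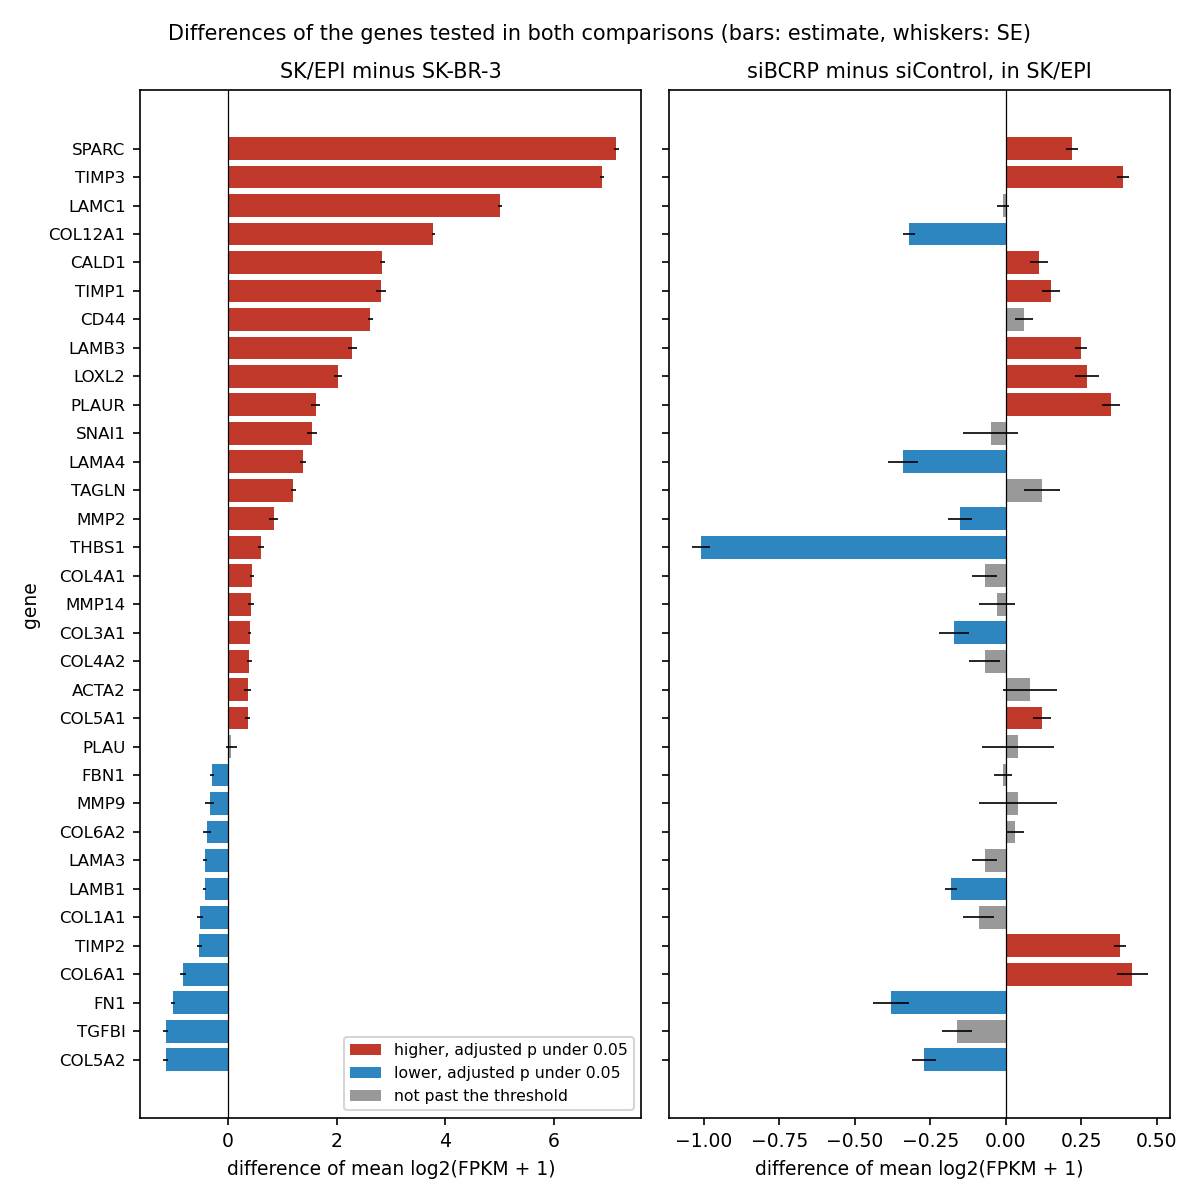
Differences of mean log2(FPKM + 1) of the 33 genes tested in both comparisons, in the order of the SK/EPI minus SK-BR-3 differences, with bars for the estimate, whiskers for the SE and colour for the call; the x axes have different scales. Differences run from -1.15 to 7.15 on the left and from -1.01 to 0.42 on the right, where THBS1 is the longest bar.

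Many members differed between untransfected SK/EPI cells and SK/EPI-siControl cells, which lie in different tables and were not tested against each other. FN1 was at 9.20 ± 0.195 FPKM in SK/EPI and 1.89 ± 0.169 in siControl cells (SD, n = 3 each), 4.86 times apart. THBS1 was at 41.8 ± 0.437 and 17.9 ± 0.586 FPKM, and TIMP3 at 156 ± 4.42 and 73.1 ± 0.239 FPKM. In the other direction TGFBI was 3.65 times and COL5A2 3.62 times higher in siControl than in SK/EPI cells. By ratio of mean FPKM, this gap between the tables exceeded the difference between siBCRP and siControl for most members called with siBCRP. FN1 and THBS1 were among them, and the exceptions were COL3A1, COL6A1, LAMB1 and PLAUR. TIMP3, for example, was 2.14 times apart between the tables and 1.315 times within the second. SNAI1, CALD1, LAMB1 and LAMC1 were 1.06 to 1.19 times apart. Transfection, culture and normalization cannot be told apart here.

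The labels name the siRNA only as siBCRP, while the study's heading for the results of these libraries names siBCRP #1, so the duplex is taken from that heading. Its lower strand is shown because the silencing comparison rests on it, 5′ to 3′ with bases 2 to 8, the seed, in capitals.
siBCRP #1, lower strand: aUAACCAGcugauucaaaguauccc

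A single siBCRP group was sequenced, so effects of silencing and of the siRNA sequence itself cannot be told apart.

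Related genes outside the module were counted in 5 lists, to be read against the 37.9% higher and 37.0% lower of all tested genes in SK/EPI and the 19.4% and 18.7% with siBCRP. Those shares still include genes that passed the filter through a single group. TGF-beta is a known inducer of matrix genes, and of 19 pathway genes 6 (31.6%) were higher and 11 (57.9%) lower in SK/EPI, with a median log2 difference of -0.19. The ligand TGFB3 fell from 35.2 ± 1.00 to 1.12 ± 0.167 FPKM (SD, n = 3 each; limma log2 difference -4.10, adjusted p = 1.25e-09), and the inhibitory SMAD6 fell by 2.06 on the log2 scale. The receptors TGFBR3 and TGFBR2 rose by 1.74 and 1.30. The receptor TGFBR1 fell from a mean of 37.5 to 9.11 FPKM (-1.93). SMAD4 fell from 1.35 to 0.0512 FPKM (-1.16), 26.3-fold lower by mean FPKM. With siBCRP 8 of the 19 were lower and 2 higher. BAMBI, a decoy receptor, and TGIF1, a repressor, fell by 0.54 and 0.44, and SKI and SMAD2 rose by 0.28 and 0.16.

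Of 18 collagen synthesis and folding genes, 16 were tested in SK/EPI, and 8 (50%) were higher and 7 (43.8%) lower. One of the 8 passed the read filter only through SK/EPI and so had to differ, which left 7 higher and 7 lower of 15. The prolyl 3-hydroxylase P3H2 rose from 0.688 ± 0.0616 to 38.1 ± 1.17 FPKM (SD, n = 3 each; limma log2 difference 4.53, adjusted p = 2.18e-10), and BMP1, which cleaves procollagen, rose by 1.56. The prolyl 4-hydroxylase subunit P4HA2 and the lysyl hydroxylase PLOD1 fell by 1.67 and 1.34. With siBCRP 9 were higher and 2 lower, PLOD3 (0.39) and SERPINH1 (0.30) rising most and P3H2 (-0.45) and PCOLCE (-0.17) falling.

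Of 17 other basement membrane genes, 8 were higher and 3 lower in SK/EPI among 12 tested (66.7% and 25%). Of the 8, 3 passed the filter only through SK/EPI, and without them 5 of 9 were higher. COL4A5 rose from 0.562 ± 0.0767 to 11.3 ± 0.216 FPKM (SD, n = 3 each; limma log2 difference 2.98, adjusted p = 3.67e-09). The laminin alpha chain LAMA5, already at 53.6 ± 0.822 FPKM in SK-BR-3, rose to 122.7 ± 2.00 FPKM (1.18, adjusted p = 1.35e-08). The heparan sulfate proteoglycans HSPG2 (perlecan) and AGRN (agrin) fell by 1.78 and 0.76. With siBCRP 2 of 11 tested were higher, COL7A1 (0.26) and COL18A1 (0.13), and 3 lower, COL4A6 (-0.33), COL4A5 (-0.19) and LAMA5 (-0.19).

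Of 22 other proteases and inhibitors, 9 were higher and 5 lower in SK/EPI among 15 tested (60% and 33.3%). ADAM12 and PLAT, which were higher, and MMP13, which was lower, passed the filter through one group only, and without them 7 of 12 were higher and 4 lower. The membrane-type metalloproteinases MMP24 and MMP16 rose by 4.04 and 1.96 on the log2 scale, and ADAM19 and ADAM15 fell by 2.19 and 1.71. With siBCRP 3 were higher and 1 lower among 12 tested. MMP15, another membrane-type enzyme, rose from 52.3 ± 1.10 to 103 ± 4.35 FPKM (SD, n = 3 each; limma log2 difference 0.96, adjusted p = 3.81e-06). MMP16 rose by 0.27, and MMP24 fell by 0.10.

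Of 27 other collagens and matricellular genes, 12 were higher and 3 lower in SK/EPI among 18 tested (66.7% and 16.7%). COL14A1 and SPP1 passed the filter only through SK/EPI, and without them 10 of 16 were higher. COL14A1, a fibril-associated collagen like COL12A1, had 0, 5 and 4 reads in SK-BR-3 and was at 119 ± 1.08 FPKM in SK/EPI (SD, n = 3). VTN (vitronectin) rose by 6.52, and the matricellular CCN2 and the fibulin FBLN2 fell by 1.84 and 1.69. With siBCRP 3 were higher and 5 lower among 19 tested. FBLN2 (0.39) and COL9A2 (0.26) rose, and MFAP2 (-0.32) and SPP1 (-0.24) fell most.

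**Figure D5:**
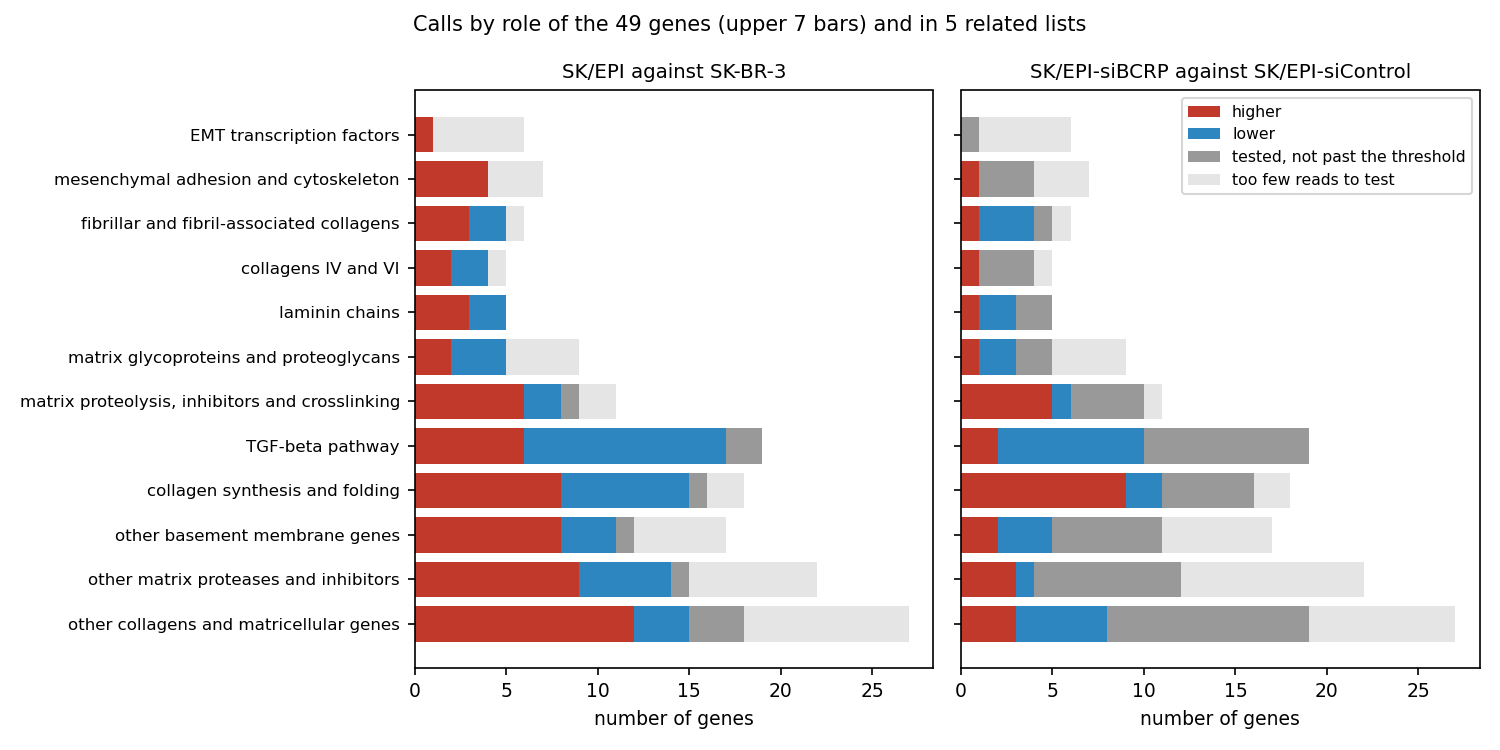
Number of genes higher, lower, not past the threshold or with too few reads to test (stacked bars, x axis) for the 7 roles of the 49 genes and the 5 related lists, in both comparisons. Most EMT factors are in the untested class in both panels, and the grey share is larger on the right, where 16 of 34 tested members did not pass the threshold.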

How the data were processed

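RNA was measured in 12 libraries of established cell lines. Poly-T selected RNA was made into NEBNext Ultra libraries, a kit that does not mark strand. The authors deposited 2 tables of FPKM for 58735 genes each, unit not named in the files. The submitters' processing notes name hg38, HISAT2 2.0.5, featureCounts 1.5.0-p3 and DESeq2 1.16.1. Each FPKM multiplied by the gene's merged exon length in GENCODE 29 was a whole multiple of a library step for 100% of genes (tolerance 0.01), which gave reads and depth. Overlapping or antisense genes could not be separated.

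Groups and replicate numbers came from the labels. A gene was tested in a table if, after scaling to the median depth, 3 or more libraries had 10 reads or more and the table as a whole had 15. The test was made with limma 3.58.1 (lmFit, eBayes with trend, R 4.3.3) on log2(FPKM + 1), with Benjamini-Hochberg adjustment over all tested genes. Fold changes are therefore understated for low genes. Folds in the text are ratios of mean FPKM. Where the lower group had 1 to 3 reads per library, or fewer, the read ratio is given with a 95% exact binomial (Clopper-Pearson) interval, and where a gene was at 0 the limit is 3 reads. Tables were handled in Python 3.11.15. On simulated reads with 200 changed genes, 83.7% of those changed by 1 on the log2 scale and 97% of those changed by 2 were recovered for SK/EPI against SK-BR-3 (15641 genes), and 90.7% and 99% for SK/EPI-siBCRP against SK/EPI-siControl (16282 genes). False calls were 13 of 15444 and 20 of 16087 unchanged genes. The reads were drawn at a single fixed dispersion. Far more genes were called in the data (6002 higher and 5852 lower in the first comparison), so these rates may not carry over.

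The members, lists, motifs and tests were chosen with earlier results of these data known. Per-library values are given for members past the threshold with a log2 difference of at least 1, for EMT factors, for members among the 5 highest of a group, and for others where few values carry the description. From other lists at most 2 rises and 2 falls per comparison are named. Exceptions are TGFBR1, SMAD4, COL4A5 (tied with LAMA5) and 4 genes named for how they passed the filter. CCN genes were matched by gene ID. Promoters came from RefSeq (GRCh38.p14). Alternatives were another pseudocount, filters, scalings, voom on recovered reads, a replicate block and leaving out each library.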

Additional observations from a re-analysis of the deposited data

How the results depend on the processing

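For SK/EPI against SK-BR-3, a log2 difference of at least 1 in addition left 13 members higher and 3 lower. Of all 15823 tested genes it left 1245 higher and 1033 lower. A mean of at least 1 FPKM left 14 members higher and 6 lower because fewer genes were tested. At that mean 4539 of all 12029 tested genes were higher and 4970 lower. The median log2 difference of the members was 1.76 with a pseudocount of 0.1, 2.05 with voom on recovered reads (which moved the median of all genes to 0.102), 1.54 with a mean of at least 1 FPKM and 0.08 without the filter on low genes, where silent members enter. Leaving out each library in turn gave 15 to 21 members higher, 11 lower and medians of 0.36 to 0.43. The 15 arose when a SK/EPI library was left out, since members absent from SK-BR-3 then had fewer than 3 libraries above the filter. Over all genes these fits gave 4807 to 5836 higher and 5174 to 5576 lower of 14828 to 15296 tested. For SK/EPI-siBCRP against SK/EPI-siControl, the added fold threshold left 0 members higher and 1 lower. Of all 16298 tested genes it left 11 higher and 56 lower. Both without the filter and with a mean of at least 1 FPKM, 5 members were lower. Over all genes 2203 of 34542 were lower without the filter and 2806 of 12439 with that mean. The median of the members was 0.11 with that mean, -0.08 with voom, and -0.05 to 0.02 when each library was left out. No called difference changed sign under any alternative listed. Same-numbered libraries did not deviate together (correlations of -0.048 to -0.002 in the first table and 0.009 to 0.055 in the second), so the numbers were not taken as pairs. With a replicate block 21 members were higher and 11 lower in the first comparison and 10 and 7 in the second, MMP2 being lost (adjusted p = 0.0685). Over all genes the block gave 5889 higher and 5767 lower of 15823 in the first and 2896 and 2744 of 16298 in the second. Depth limits the members at or under 3 reads, whose changes were not detectable here, and the low-level metalloproteinases.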
